A study of Homo sapiens with 16 samples.

Results

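Gene expression in HepG2 was compared directly with that in Huh-7 after 12 h of cinobufagin, using the 3 libraries of each line labelled with that treatment, 6 of the 16 libraries of the series. HepG2 and Huh-7 are human liver cancer cell lines. In both groups the cultures had been given cinobufagin at 5 µmol/L for 12 h, and no genetic change is labelled in either. No untreated library entered the main comparison, so each difference holds what already separated the lines and whatever the drug added in either. For context, the same line difference was measured in the 3 HepG2 and 3 Huh-7 libraries given the drug for 24 h, and in the untreated libraries, of which HepG2 has 1 and Huh-7 has 3. Autosomal genes alone were compared. Whether each line's 3 libraries were grown as separate cultures is not labelled, and every p-value here reflects only how these libraries spread, which may be technical.

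Cinobufagin is a bufadienolide, a cardiotonic steroid found in toad venom. Such steroids bind the alpha subunit of the Na,K-ATPase, the pump that carries sodium out of the cell and potassium in, and its inhibition lets sodium accumulate and potassium fall. Cardiotonic steroids are known in cultured human cells for inducing immediate early genes and for limiting protein synthesis. Cells under amino acid shortage, endoplasmic reticulum stress or related strain phosphorylate the translation factor eIF2-alpha, which favours translation of ATF4, and ATF4 then activates the genes of the integrated stress response. A separate programme driven by HSF1 raises heat shock chaperones when proteins misfold.

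The 6 libraries were of similar depth, with 9972707 to 10117812 expected counts in HepG2 and 9543048 to 9662307 in Huh-7. At these depths 3 counts in a library correspond to 0.297 to 0.301 CPM, counts scaled to the same total in every library, in HepG2 and 0.310 to 0.314 CPM in Huh-7. Transcripts of most secreted hepatocyte proteins were near 0 in both lines, although the labels give liver cancer cells. Of 34 secreted hepatocyte proteins, 17 had any count in the 6 libraries. AFP, the alpha-fetoprotein of fetal liver, had none, nor had APOB, TTR, TF and SERPINA1. HNF4A, a nuclear receptor that maintains hepatocyte identity, was listed in no HepG2 library and stood at 0.307, 0.523 and 0.826 CPM in the Huh-7 libraries. Complement C3 and, in HepG2, vitronectin (VTN) were among the exceptions in the secreted list. C3 averaged 379 CPM in HepG2 against 285 CPM in Huh-7 and VTN 106 CPM in HepG2 against 0.655 CPM in Huh-7. The levels of these secreted proteins and of HNF4A go against the liver origin that the labels give. Other liver genes were present: 8 of 24 liver transcription factors averaged 10 CPM or more in HepG2 and 11 in Huh-7. Of 20 urea cycle and gluconeogenesis genes 11 did so in HepG2 and 10 in Huh-7, CPS1 among them. All these levels are from treated cells, and the identity of either line was not tested here. HepG2 and Huh-7 below therefore mean the libraries so labelled, and every difference rests on those labels. Summed over each list, markers of blood and immune cells came to 51.6 to 57.0 CPM in HepG2 and 66.3 to 76.1 CPM in Huh-7 libraries, those of endothelial and stromal cells to 108 to 115 CPM in HepG2 and 71.2 to 76.4 CPM in Huh-7, and those of biliary and other epithelia to 655 to 678 CPM in HepG2 and 276 to 290 CPM in Huh-7. Of 14 blood and immune markers 11 had any count. CD68, of macrophage lysosomes, averaged 35.4 CPM in HepG2 against 41.9 CPM in Huh-7, and lysozyme (LYZ) 11.9 CPM in HepG2 against 18 CPM in Huh-7. Haemoglobin HBA1 averaged 1.63 CPM in HepG2 against 4.99 CPM in Huh-7 and was called lower, and its near-identical copy HBA2 averaged 2.94 CPM in HepG2 against 2.90 CPM in Huh-7. CD3E, MS4A1 and HBB were at 0 in all 6 libraries, as were PDGFRA and CDX2 of the other lists, and the part of these lists in any result below was not tested.

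Of 11768 genes tested, 3903 (33.2%) were called different between the lines at 12 h: 2053 (17.4%) were higher and 1850 (15.7%) lower in HepG2. A gene was called when the quasi-likelihood test of edgeR gave it an adjusted p (Benjamini-Hochberg, over all genes tested) under 0.05 and its levels differed at least 2-fold. Differences of at least 4-fold were called for 743 higher and 700 lower genes, and of at least 16-fold for 216 and 263. Every SE given is the absolute fitted log2 difference over the square root of that test's F statistic. Where 1 line held few counts it can fall well short of counting error. The median log2 difference over all genes tested was -0.03, HepG2 minus Huh-7, as are all differences below, with quartiles of -0.66 and 0.67. Libraries of 1 line were far closer to each other than to the other line: Pearson correlations of log2(CPM + 1) across genes were at least 0.996 within a line and at most 0.855 between lines. With replicates this close, 9729 genes (82.7%) had groups that did not overlap, so a lack of overlap by itself says little about any gene here.

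Some genes were read in 1 line and hardly in the other. In all 3 HepG2 libraries 173 genes were listed that no Huh-7 library listed, and the reverse held for 253. COL15A1, a collagen of the basement membrane zone, stood at 85.9, 86.2 and 84.0 CPM in the HepG2 libraries, against 0 CPM in all 3 Huh-7 libraries. Set against 3 counts over the Huh-7 group, it was at least 825-fold higher in HepG2. The same bound was at least 327-fold for the voltage-gated sodium channel SCN8A, 321-fold for the membrane mucin MUC16, which limma on log2(FPKM + 1) did not call, and 237-fold for SPINT1, a membrane-bound serine protease inhibitor. KRT19, a keratin of simple epithelia and bile ducts, had 92.2, 91.7 and 92.4 CPM in the HepG2 libraries, against 0, 0.105 and 0 CPM in the Huh-7 libraries. That single Huh-7 count gives a ratio of 2672 with a 95% counting interval of 479 to 105580.0, which like every such interval covers counting error alone. ALPI, an intestinal alkaline phosphatase, stood at 775, 791 and 777 CPM in the HepG2 libraries, against 0.758, 0.636 and 0.551 CPM in the Huh-7 libraries, a log2 difference of 10.27 (SE 0.075, edgeR quasi-likelihood adjusted p = 6.88e-37). Its close relative ALPP, the placental enzyme, stood at 4757, 4972 and 4856 CPM in the HepG2 libraries, against 704, 717 and 694 CPM in the Huh-7 libraries, and because the 2 transcripts share sequence the split of reads between them is uncertain. The placental enzymes' other relative ALPG went the other way, at 9.02 ± 0.635 CPM in HepG2 and 63.9 ± 4.36 CPM in Huh-7 (mean and SD, n = 3 each, as for every ± in this comparison). The rest of the 15 highest genes, in falling order of difference, included TARP, TNS1, TENM3, ARHGAP32, ASB1, the pyrimidine nucleotide receptor P2RY6, the small GTPase RAB17, ALPK2 and HPD, an enzyme of tyrosine breakdown.

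On the Huh-7 side, RUNX3 showed the lowest difference of all named genes. This Runt-family transcription factor was at 0 CPM in all 3 HepG2 libraries, against 421, 418 and 387 CPM in the Huh-7 libraries, at least 4083-fold lower in HepG2. The sphingosine-1-phosphate receptor S1PR1 was at 0 CPM in all 3 HepG2 libraries, against 105, 114 and 105 CPM in the Huh-7 libraries, at least 1079.5-fold lower. PTPRD, a receptor-type tyrosine phosphatase, was at 0 CPM in all 3 HepG2 libraries, against 99.2, 102 and 101 CPM in the Huh-7 libraries, at least 1006-fold lower. No HepG2 library held a count of these 3 genes. PDE2A, a cyclic nucleotide phosphodiesterase, had 1 count among the HepG2 libraries and 323, 326 and 295 CPM in the Huh-7 libraries. SLC17A9, a vesicular nucleotide transporter, MYEOV, HDGFL3, TDRD9, RASEF, TUSC3, the LIM-homeodomain factor ISL1, the calcium channel subunit CACNA2D1 and the intermediate filament INA completed the 15 lowest, with SNURF and SNRPN. The last pair share an imprinted locus on chromosome 15 and a transcript, so the split of reads between them is uncertain. These genes are plotted by library.

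**Figure D1:**
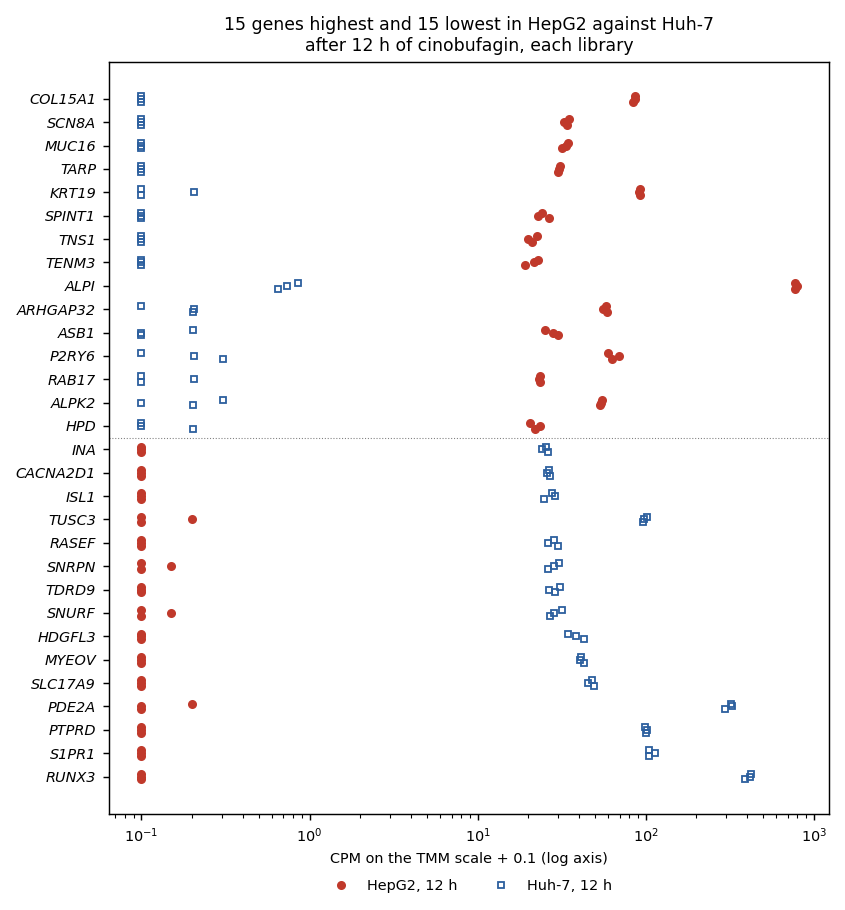
Level of the 15 genes highest and the 15 lowest in HepG2 relative to Huh-7 among called genes that averaged 10 CPM or more and whose groups do not overlap, in CPM + 0.1 on a log axis; filled circles are the 3 HepG2 libraries and open squares the 3 Huh-7 libraries at 12 h. The silent line's libraries sit at or near the left edge, where a value of 0 is drawn at 0.1, except ALPI, which Huh-7 libraries held at 0.551 to 0.758 CPM.

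Of 6 tested subunits of the drug's target, 1 was called different between the lines, 16.7% against 33.2% of all genes tested. ATP1B1, a beta subunit needed for the pump to mature and reach the membrane, stood at 651, 642 and 644 CPM in the HepG2 libraries, against 142, 145 and 146 CPM in the Huh-7 libraries. It was 4.47-fold higher in HepG2 (log2 2.16, SE 0.032, edgeR quasi-likelihood adjusted p = 3.97e-30), with no overlap between the groups. The other abundant beta subunit, ATP1B3, averaged 899 ± 8.78 CPM in HepG2 and 504 ± 6.66 CPM in Huh-7 (log2 0.83) and was not called, since the difference was under 2-fold. Of 11 tested genes of the osmotic stress list, 3 were higher and 1 lower, 36.4% called against 33.2% of all genes tested. SGK1, a kinase that regulates sodium and potassium transport, averaged 984 ± 5.6 CPM in HepG2 and 181 ± 7.40 CPM in Huh-7. The water and glycerol channel AQP3 averaged 403 ± 6.86 CPM in HepG2 and 47.6 ± 1.90 CPM in Huh-7. Both were far higher in HepG2, and the betaine carrier SLC6A12 was the third gene called higher. SMOX, spermine oxidase, was lower, at 59.7 ± 2.40 CPM in HepG2 and 125 ± 2.34 CPM in Huh-7. The osmotic regulator NFAT5, at 383 CPM in HepG2 against 570.2 CPM in Huh-7, was not called.

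Immediate early genes are switched on within minutes of a stimulus without new protein synthesis, and those that differed were nearly all lower in HepG2. Of 32 tested, 16 were called lower and 1 higher, with a median log2 difference of -0.88 against -0.03 over all genes tested. The share called was 53.1%, against 33.2% of all genes tested. EGR1, a zinc finger transcription factor, stood at 16.7, 16.2 and 17.2 CPM in the HepG2 libraries, against 505, 554 and 524 CPM in the Huh-7 libraries. The Huh-7 libraries were 31.6-fold higher on average (log2 -4.98, SE 0.052, edgeR quasi-likelihood adjusted p = 1.58e-33), with a wide gap between the groups. FOSL1, an AP-1 subunit, stood at 37.9, 42.9 and 37.7 CPM in the HepG2 libraries, against 1192, 1306 and 1230.3 CPM in the Huh-7 libraries, a log2 difference of -4.97 (SE 0.045). Both genes were above 500 CPM in every Huh-7 library. FOS itself stood at 36.7, 41.2 and 38.7 CPM in the HepG2 libraries, against 120.1, 127 and 114 CPM in the Huh-7 libraries (log2 -1.63, SE 0.055). The dual-specificity phosphatases DUSP5, DUSP6 and DUSP2, which remove phosphate from MAP kinases, were called lower, as was ARC, a neuronal activity gene. DUSP5 averaged 15.5 ± 0.681 CPM in HepG2 and 285 ± 13.8 CPM in Huh-7. For ARC the means were 1.37 ± 0.201 CPM in HepG2 and 24.0 ± 2.37 CPM in Huh-7. BTG2, an antiproliferative gene, was the single member called higher. MYC, the growth-promoting transcription factor, stood at 707, 739 and 712 CPM in the HepG2 libraries, against 1125, 1072 and 1056 CPM in the Huh-7 libraries and was not called (log2 -0.59). DUSP1, at 840.4 CPM in HepG2 against 675 CPM in Huh-7, and CCN1, at 1949 CPM in HepG2 against 1542 CPM in Huh-7, were not called either.

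Ligands of the EGF receptor were among the genes lower in HepG2, while the receptors were not called. Of 13 tested members of the receptor family, its ligands and its regulators, 7 were lower and 1 higher (median -1.27). The share called was 61.5%, against 33.2% of all genes tested. Epiregulin (EREG) stood at 6.82, 7.83 and 7.31 CPM in the HepG2 libraries, against 167, 171 and 182 CPM in the Huh-7 libraries (log2 -4.56, SE 0.069). HBEGF averaged 4.37 ± 0.441 CPM in HepG2 and 32.3 ± 1.64 CPM in Huh-7. Amphiregulin (AREG) averaged 6.91 ± 0.251 CPM in HepG2 and 39.5 ± 2.71 CPM in Huh-7. These ligands, with TGFA and EPGN, were all called lower, and NRG4 higher. ERRFI1, an inhibitor of the receptor's kinase, averaged 22.0 ± 1.74 CPM in HepG2 and 109 ± 4.76 CPM in Huh-7. EGFR, at 636 CPM in HepG2 against 657 CPM in Huh-7, and ERBB2, at 36.3 CPM in HepG2 against 37.5 CPM in Huh-7, were close to equal in level. Of 22 tested targets of the SRF and YAP transcription factors, 5 were lower and 2 higher. That share called, 31.8%, is near the 33.2% of all genes tested, and the list's median of 0.01 changed sign under other settings. CCN2, a matricellular growth factor gene, averaged 15.5 ± 1.06 CPM in HepG2 and 299 ± 8.21 CPM in Huh-7. Tissue factor (F3), which starts coagulation, averaged 145 ± 4.43 CPM in HepG2 and 700.1 ± 13.0 CPM in Huh-7. The receptor kinase AXL averaged 92.1 ± 5.87 CPM in HepG2 and 353 ± 3.14 CPM in Huh-7. All 3 were lower in HepG2, as were FJX1 and TAGLN, while ACTA2 and AJUBA were higher.

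Of 30 tested genes of the integrated stress response, 12 were lower in HepG2 and 4 higher (median -0.49). The share called was 53.3%, against 33.2% of all genes tested. CHAC1, which degrades glutathione, stood at 10.4, 10.2 and 9.56 CPM in the HepG2 libraries, against 133, 126 and 121 CPM in the Huh-7 libraries. All HepG2 libraries lay under all Huh-7 libraries, by 12.6-fold on average (log2 -3.65, SE 0.068, edgeR quasi-likelihood adjusted p = 1.30e-27). STC2, a secreted glycoprotein, stood at 12.5, 12.8 and 10.6 CPM in the HepG2 libraries, against 726, 751 and 734 CPM in the Huh-7 libraries, a log2 difference of -5.95 (SE 0.050). SESN2, an inhibitor of mTORC1 signalling, averaged 36.9 ± 2.73 CPM in HepG2 and 199.5 ± 2.54 CPM in Huh-7. DDIT3, the transcription factor CHOP, stood at 11.5, 10.4 and 7.57 CPM in the HepG2 libraries, against 30.5, 27.0 and 27.7 CPM in the Huh-7 libraries (log2 -1.53, SE 0.11, edgeR quasi-likelihood adjusted p = 1.36e-13). ATF4 itself averaged 665 ± 13.2 CPM in HepG2 and 831 ± 19.8 CPM in Huh-7 and was not called (log2 -0.32). NUPR1, a stress-induced nuclear protein, went the other way, at 124, 117 and 121 CPM in the HepG2 libraries, against 1.02, 0.314 and 0.826 CPM in the Huh-7 libraries (log2 7.36, SE 0.12), and ATF5, VLDLR and SLC6A9 were also called higher. NUPR1 was thus near 0 in Huh-7 while most of the list was higher there or not called. The amino acid carriers SLC7A5, at 3908 CPM in HepG2 against 3145 CPM in Huh-7, and SLC3A2, at 1822 CPM in HepG2 against 1042 CPM in Huh-7, were not called. Of 20 cytosolic aminoacyl-tRNA synthetases, many of which ATF4 activates, 1 was higher and 2 were lower (median 0.03). That is 15% called, under the 33.2% of all genes tested. The cysteine enzyme gene CARS1 averaged 67.7 ± 4.27 CPM in HepG2 and 219.9 ± 6.72 CPM in Huh-7. EPRS1 averaged 83.8 ± 0.379 CPM in HepG2 and 208 ± 9.53 CPM in Huh-7. FARSA was the one on the HepG2 side, at 101 ± 6.91 CPM in HepG2 and 38.7 ± 1.74 CPM in Huh-7.

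The promoters of CHAC1 and ASNS, a gene for asparagine synthetase that was also lower in HepG2 (44.1 CPM in HepG2 against 92.2 CPM in Huh-7), are shown because both hold the letters TGATGNAA, which ATF4 with a C/EBP partner is known to bind. They are the 250 bases before the annotated start, from RefSeq on GRCh38.p14, written on the gene's own strand with the match in capitals. CHAC1 lies at chr15:40953221-40953470 (plus strand), where the match begins 209 bases before the start and reads on the opposite strand, and ASNS at chr7:97872409-97872658 (minus strand), 68 bases before.
CHAC1: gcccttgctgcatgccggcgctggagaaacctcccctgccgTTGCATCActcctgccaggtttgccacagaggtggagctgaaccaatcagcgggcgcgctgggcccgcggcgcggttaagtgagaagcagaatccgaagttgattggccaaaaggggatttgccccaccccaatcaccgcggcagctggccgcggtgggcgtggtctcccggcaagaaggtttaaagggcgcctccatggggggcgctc
ASNS: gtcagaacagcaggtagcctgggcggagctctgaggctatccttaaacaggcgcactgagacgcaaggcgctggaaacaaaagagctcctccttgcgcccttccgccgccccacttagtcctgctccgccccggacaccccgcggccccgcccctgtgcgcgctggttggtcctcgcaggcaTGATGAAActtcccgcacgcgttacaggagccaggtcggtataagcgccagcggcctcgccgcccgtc
Searched on both strands in windows from 250 bases before to 50 after the start, these letters were found in 159 of 9607 promoters of tested genes (1.66%). Among the stress response genes 4 of 25 promoters held them, CHAC1, ASNS, SLC3A2 and SLC7A1, and 2 of these were called lower and 2 not called. A match is a description of the sequence and not a site of binding.

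Heat shock genes were lower in HepG2 in 12 of 26 cases and higher in 1 (median -0.89). The share called was 50%, against 33.2% of all genes tested. HSPA6, a stress-inducible HSP70 that is usually silent, stood at 0.101, 0 and 0 CPM in the HepG2 libraries, against 87.0, 91.6 and 88.9 CPM in the Huh-7 libraries. A single count among the HepG2 libraries gives a ratio of 0.000374 with a 95% counting interval of 9.47e-06 to 0.00209 (log2 -10.92, SE 0.20, edgeR quasi-likelihood adjusted p = 1.80e-28). The SE of 0.20 falls far short of that counting interval. HSPA1A, the main inducible HSP70, stood at 236, 249 and 233 CPM in the HepG2 libraries, against 1602, 1602 and 1593 CPM in the Huh-7 libraries (log2 -2.74, SE 0.030), and its near-identical copy HSPA1B moved the same way, with reads that cannot be assigned between them with certainty. HSPH1, a nucleotide exchange factor for HSP70, averaged 58.5 ± 1.88 CPM in HepG2 and 582 ± 17.5 CPM in Huh-7. The co-chaperone CHORDC1 averaged 29.1 ± 1.05 CPM in HepG2 and 278 ± 17.8 CPM in Huh-7. DNAJB1, BAG3, HSPB8, HSP90AA1, HSPA8 and HSPE1 were lower as well. HSPA12A was the member called higher, at 6.81 CPM in HepG2 against 0.277 CPM in Huh-7, and the small heat shock protein HSPB1, at 330.0 CPM in HepG2 against 251 CPM in Huh-7, was not called. The heat shock factor HSF1 averaged 133 CPM in HepG2 against 248 CPM in Huh-7 and was not called either.

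HSPA6 and CHORDC1 are shown because their promoters hold the letters of a heat shock element, TTC, GAA and TTC in a row with any 2 bases between each, to which HSF1 is known to bind. The windows and their source are those given for CHAC1. HSPA6 lies at chr1:161524290-161524539 (plus strand), with the match 74 bases before the start, and CHORDC1 at chr11:90223050-90223299 (minus strand), with 3 overlapping matches 60, 55 and 50 bases before, of which the first and the last read on the opposite strand.
HSPA6: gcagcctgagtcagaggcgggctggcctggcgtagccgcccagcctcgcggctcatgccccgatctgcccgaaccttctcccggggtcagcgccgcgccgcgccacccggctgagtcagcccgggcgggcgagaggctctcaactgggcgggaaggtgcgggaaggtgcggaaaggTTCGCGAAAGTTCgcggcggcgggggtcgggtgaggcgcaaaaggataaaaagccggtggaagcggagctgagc
CHORDC1: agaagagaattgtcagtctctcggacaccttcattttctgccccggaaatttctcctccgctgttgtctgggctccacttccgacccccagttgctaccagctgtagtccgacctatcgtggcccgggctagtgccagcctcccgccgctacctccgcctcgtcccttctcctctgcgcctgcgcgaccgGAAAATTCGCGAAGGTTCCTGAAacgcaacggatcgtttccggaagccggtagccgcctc
The letters were found in 32 of 9607 promoters of tested genes (0.333%) and in 5 of 24 of heat shock genes: HSPA6, CHORDC1, HSPA8, DNAJA1 and DNAJB6. The first 3 were called lower in HepG2 and the last 2 were not called. Of 22 endoplasmic reticulum chaperones and their regulators 3 were called lower and none higher (median 0.07). That is 13.6% called, under the 33.2% of all genes tested. HSPA5, the abundant chaperone BiP, averaged 561 ± 8.08 CPM in HepG2 and 1324 ± 14.5 CPM in Huh-7. DNAJC3, an inhibitor of eIF2-alpha kinases, averaged 53.6 ± 2.04 CPM in HepG2 and 127 ± 5.70 CPM in Huh-7. EDEM1 was lower just past the 2-fold limit (log2 -1.03) and was not called by limma on log2(FPKM + 1). HSP90B1, at 459.7 CPM in HepG2 against 602 CPM in Huh-7, and CALR, at 1650.5 CPM in HepG2 against 1445 CPM in Huh-7, were not called.

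Cytokine genes parted in both directions. Of 25 tested NF-kB targets and cytokines 12 were higher and 7 lower (median 0.31), 76% called against 33.2% of all genes tested. Interleukin 11 (IL11) stood at 2.20, 1.35 and 2.22 CPM in the HepG2 libraries, against 765, 779 and 735 CPM in the Huh-7 libraries (log2 -8.61, SE 0.070, edgeR quasi-likelihood adjusted p = 7.54e-36). LIF, a cytokine of the same family, stood at 1.92, 1.59 and 1.49 CPM in the HepG2 libraries, against 72.1, 69.3 and 69.9 CPM in the Huh-7 libraries (log2 -5.39, SE 0.11). IL6, also of that family, was higher in HepG2, at 273, 273 and 264 CPM in the HepG2 libraries, against 55.3, 51.9 and 50.9 CPM in the Huh-7 libraries, a direction opposite to its relatives. IL18, an inflammasome cytokine, averaged 184 ± 4.22 CPM in HepG2 and 13.7 ± 1.18 CPM in Huh-7. The ranges of each of these genes lay far apart in the 2 lines. BIRC3, an inhibitor of apoptosis, averaged 260.1 CPM in HepG2 against 22.9 CPM in Huh-7. The subunits of NF-kB parted: NFKB2, at 603 CPM in HepG2 against 171 CPM in Huh-7, and RELB, at 70.8 CPM in HepG2 against 28.5 CPM in Huh-7, were higher. RELA was called lower, at 94.6 CPM in HepG2 against 194 CPM in Huh-7, and NFKB1, at 76.3 CPM in HepG2 against 91.4 CPM in Huh-7, was not called. The macrophage growth factor CSF1 was lower, at 1.04 ± 0.293 CPM in HepG2 and 25.6 ± 1.94 CPM in Huh-7.

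Genes of the TGF-beta, activin and BMP pathways also went both ways, with 13 higher and 10 lower of 31 tested (median 0.45). The share called was 74.2%, against 33.2% of all genes tested. TGFB2, a ligand, had 1 count among the HepG2 libraries and 79.4, 79.5 and 83.5 CPM in the Huh-7 libraries. Follistatin (FST), which binds activin, stood at 0.505, 0.199 and 0.598 CPM in the HepG2 libraries, against 215, 204 and 216 CPM in the Huh-7 libraries (log2 -8.89, SE 0.11). The inhibin subunit genes INHA and INHBB were higher in HepG2 and INHBA lower. INHBB averaged 20.3 ± 2.51 CPM in HepG2 and 0.137 ± 0.119 CPM in Huh-7. Of 14 tested Wnt antagonists and targets, 5 were higher and 2 lower, 50% called against the same 33.2%. BMP4, a secreted ligand on both lists, averaged 19.1 ± 0.367 CPM in HepG2 and 1.52 ± 0.78 CPM in Huh-7. The ligand WNT7B averaged 309.5 ± 10.4 CPM in HepG2 and 59.9 ± 3.80 CPM in Huh-7. ZNRF3, which removes Wnt receptors from the membrane, averaged 59.5 ± 1.77 CPM in HepG2 and 8.13 ± 0.93 CPM in Huh-7. Its relative RNF43 was called lower. TBX3, a T-box factor also counted among liver and patterning factors, averaged 1134 ± 22.2 CPM in HepG2 and 74.2 ± 4.04 CPM in Huh-7 (log2 3.93, SE 0.037).

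Mitotic genes that differed were nearly all higher in HepG2. Of 30 tested 12 were higher and 1 lower, with a median of 0.84, 43.3% called against 33.2% of all genes tested. PLK1, the kinase that drives entry into and passage through mitosis, stood at 274, 276 and 279.6 CPM in the HepG2 libraries, against 34.7, 31.7 and 32.4 CPM in the Huh-7 libraries, 8.39-fold higher in HepG2 on average (log2 3.07, SE 0.045, edgeR quasi-likelihood adjusted p = 4.84e-30). The groups were separate, as they were for the kinesin KIF20A, at 60.3, 62.0 and 60.5 CPM in the HepG2 libraries, against 7.27, 9.41 and 8.88 CPM in the Huh-7 libraries. CENPA, the centromeric histone, averaged 30.2 ± 1.17 CPM in HepG2 and 3.32 ± 1.06 CPM in Huh-7. The spindle factor DLGAP5 averaged 34.9 ± 0.731 CPM in HepG2 and 9.52 ± 0.619 CPM in Huh-7. AURKA, AURKB, CCNB1, CCNB2, BIRC5 and TOP2A were called higher as well. TPX2, a spindle assembly factor, was the 1 member called lower, at 188 CPM in HepG2 against 467 CPM in Huh-7. In bulk RNA of this kind a larger share of cells in mitosis and more of these transcripts per cell cannot be told apart. Of 31 DNA replication genes 6 were higher and 1 was lower (median 0.31), 22.6% called against 33.2% of all genes tested. The ribonucleotide reductase subunit RRM1 averaged 1355 ± 14.4 CPM in HepG2 and 452 ± 15.9 CPM in Huh-7. GINS1, of the replicative helicase, averaged 29.0 ± 0.953 CPM in HepG2 and 6.37 ± 0.59 CPM in Huh-7. RFC4, of the clamp loader, averaged 96.3 ± 5.14 CPM in HepG2 and 33.6 ± 3.54 CPM in Huh-7. PCNA, PRIM1 and GINS3 were the other members called higher. POLD1, a DNA polymerase subunit, was lower, at 84.4 ± 1.99 CPM in HepG2 and 221 ± 9.28 CPM in Huh-7.

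Cyclins, kinases and inhibitors of the G1 phase were called higher in 2 and lower in 3 of 20 cases. That share called, 25%, is under the 33.2% of all genes tested. The inhibitor CDKN1C (p57) averaged 12.4 ± 0.663 CPM in HepG2 and 142 ± 5.55 CPM in Huh-7. The kinase CDK6 averaged 75.8 ± 1.67 CPM in HepG2 and 371 ± 8.90 CPM in Huh-7. Both were lower in HepG2, as was cyclin E1 (CCNE1), while cyclin E2 and the inhibitor CDKN2B were higher. CCNE2 averaged 33.3 ± 2.38 CPM in HepG2 and 9.28 ± 1.62 CPM in Huh-7. CDKN2B averaged 33.3 ± 0.808 CPM in HepG2 and 13.3 ± 0.676 CPM in Huh-7. CDKN1A (p21), a target of p53, stood at 183, 192 and 188 CPM in the HepG2 libraries, against 178, 173 and 173 CPM in the Huh-7 libraries and was not called (log2 0.10). Of 24 tested p53 targets 7 were higher and 2 lower, a share called of 37.5% that is near the 33.2% of all genes tested. ZMAT3, an RNA-binding target, averaged 62.2 ± 2.35 CPM in HepG2 and 9.03 ± 2.13 CPM in Huh-7. The kinase gene PLK3 was on the other side, at 6.84 ± 0.348 CPM in HepG2 and 65.1 ± 1.14 CPM in Huh-7. So was the death receptor TNFRSF10A, at 32.5 ± 1.45 CPM in HepG2 and 75.1 ± 1.37 CPM in Huh-7, while its relative TNFRSF10B, at 199 CPM in HepG2 against 355 CPM in Huh-7, was not called. In the BCL2 family 4 of 17 were higher and 3 lower, 41.2% called against 33.2% of all genes tested. BCL2L1, which restrains apoptosis, averaged 203 ± 1.27 CPM in HepG2 and 529.5 ± 2.52 CPM in Huh-7. BAD, which promotes it, averaged 9.67 ± 0.95 CPM in HepG2 and 25.3 ± 3.5 CPM in Huh-7. Genes on both sides of that balance were thus lower in HepG2. BOK averaged 23.6 ± 1.11 CPM in HepG2 and 6.58 ± 0.268 CPM in Huh-7. BCL2L13 averaged 20.6 ± 0.963 CPM in HepG2 and 6.96 ± 1.13 CPM in Huh-7. MCL1, at 635 CPM in HepG2 against 945 CPM in Huh-7, was not called. Most replication-dependent histone transcripts lack a poly(A) tail and are caught only in part by oligo-dT capture. Transcripts of that list were higher in 1 and lower in 4 of 18 cases (median -0.38). That share called, 27.8%, is under the 33.2% of all genes tested. H2AC18 and H2AC19 have identical values, 38.6 CPM in HepG2 against 149.8 CPM in Huh-7, and their reads cannot be separated, so 1 measurement counts as 2 members in every histone count here. H2BC12 was the member called higher, at 597 ± 17.4 CPM in HepG2 and 281 ± 11.5 CPM in Huh-7.

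**Figure D2:**
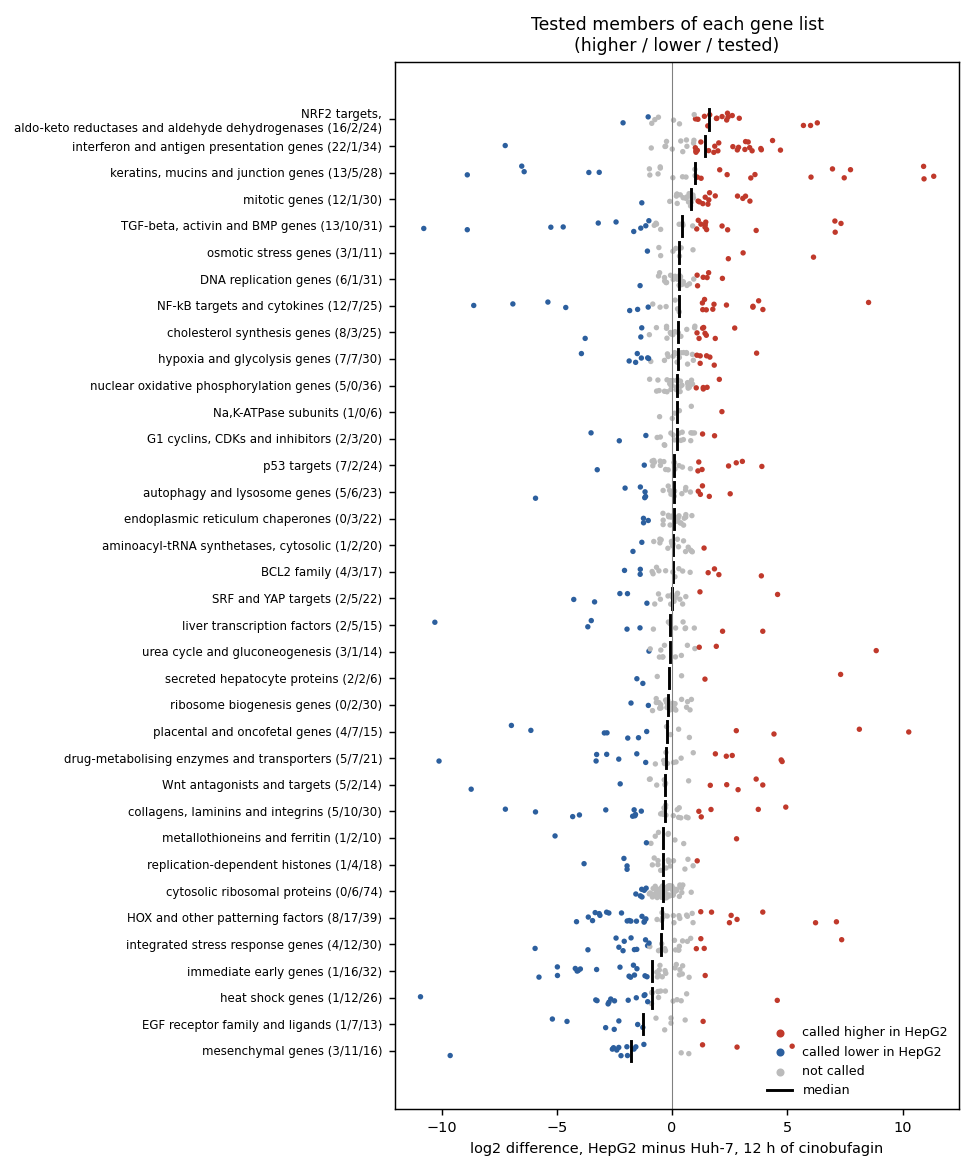
Log2 difference of every tested member of each gene list other than the marker lists of other cells, HepG2 minus Huh-7 at 12 h; red points were called higher in HepG2, blue points lower and grey points were not called, and the black bar is the list's median. Beside each name stand the numbers higher, lower and tested, and the lists shown are ordered by median, with NRF2 targets at 1.59 on top and mesenchymal genes at -1.80 at the bottom.

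Epithelial and mesenchymal genes separated the lines. Of 28 tested keratins, mucins and junction genes 13 were higher in HepG2 and 5 lower (median 0.99). The share called was 64.3%, against 33.2% of all genes tested. Beside KRT19, MUC16 and SPINT1, the keratin KRT17 averaged 1017 CPM in HepG2 against 84.1 CPM in Huh-7. KRT8, of simple epithelia, averaged 2395 CPM in HepG2 against 572 CPM in Huh-7, and the mucin MUC1 486 CPM in HepG2 against 45.6 CPM in Huh-7. MUC13 was the reverse, at 1.52, 0.698 and 0.797 CPM in the HepG2 libraries, against 477, 491 and 472 CPM in the Huh-7 libraries (log2 -8.89, SE 0.082), and CDH2, N-cadherin, was lower too, at 12.6 CPM in HepG2 against 113 CPM in Huh-7. Of 16 mesenchymal genes 11 were lower in HepG2 and 3 higher (87.5% called), the lowest median of all lists (-1.80). SNAI2, a zinc finger repressor of epithelial genes, averaged 13.6 ± 1.44 CPM in HepG2 and 79.4 ± 0.787 CPM in Huh-7. Without the drug SNAI2 had the opposite order. It stood at 16.1 CPM in the 1 untreated HepG2 library, against 3.76 ± 0.905 CPM in untreated Huh-7 libraries, scaled over the 16 libraries. At 24 h SNAI2 was not called (log2 -0.36). ZEB2, another such repressor, averaged 6.74 ± 0.664 CPM in HepG2 and 33.6 ± 0.9 CPM in Huh-7. SNAI1, ZEB1 and TWIST1 were also called lower. CD44, a hyaluronan receptor, averaged 121 ± 3.81 CPM in HepG2 and 565 ± 19.6 CPM in Huh-7. Vimentin (VIM) was higher in HepG2, at 560.1 CPM in HepG2 against 224 CPM in Huh-7. The membrane protease MMP14 was too, at 19.6 ± 0.629 CPM in HepG2 and 0.518 ± 0.183 CPM in Huh-7. Collagens, laminins and integrins were lower in 10 and higher in 5 of 30 cases (median -0.31), 50% called against the same 33.2%. ITGA5, the fibronectin receptor subunit, averaged 38.8 ± 1.56 CPM in HepG2 and 772 ± 16.5 CPM in Huh-7. COL5A2, a fibrillar collagen, averaged 0.435 ± 0.211 CPM in HepG2 and 27.2 ± 1.09 CPM in Huh-7. COL18A1, a basement membrane collagen, averaged 1.5 ± 0.449 CPM in HepG2 and 24.6 ± 1.12 CPM in Huh-7. These were lower in HepG2, unlike ITGB8, which takes part in activating TGF-beta and averaged 73.0 ± 1.17 CPM in HepG2 and 2.37 ± 0.738 CPM in Huh-7.

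Of 39 tested HOX and other patterning factors 17 were lower in HepG2 and 8 higher (median -0.44). The share called was 64.1%, against 33.2% of all genes tested. The HOXC cluster on chromosome 12 was lower as a block: HOXC13, HOXC11, HOXC10, HOXC9, HOXC8, HOXC6 and HOXC4 were all called, with differences from -3.16 to -1.22. HOXC11 stood at 12.5, 11.8 and 10.4 CPM in the HepG2 libraries, against 101, 109 and 101 CPM in the Huh-7 libraries. HOXC6 stood at 3.23, 3.12 and 3.26 CPM in the HepG2 libraries, against 23.9, 22.8 and 22.5 CPM in the Huh-7 libraries. HOXB9 was lower, at 2.14 ± 0.406 CPM in HepG2 and 23.5 ± 1.53 CPM in Huh-7, but HOXB2 and HOXB3 of the same cluster were higher, at 11.2 CPM in HepG2 against 0.138 CPM in Huh-7 for HOXB2 and 12.0 CPM in HepG2 against 2.14 CPM in Huh-7 for HOXB3. Placental and oncofetal genes were higher in 4 and lower in 7 of 15 cases, or 73.3% called. CGA, the common subunit of glycoprotein hormones, averaged 0.339 ± 0.261 CPM in HepG2 and 24.2 ± 1.91 CPM in Huh-7. HMGA2, a chromatin protein of fetal tissue, averaged 2.75 ± 0.473 CPM in HepG2 and 21.1 ± 0.714 CPM in Huh-7. The oncofetal RNA-binding genes IGF2BP1, IGF2BP2 and IGF2BP3 were not called. Endothelial and stromal markers were called higher in 4 and lower in 1 of 7 cases, or 71.4%. CDH5, the cadherin of endothelium, averaged 48.2 ± 2.62 CPM in HepG2 and 0.721 ± 0.367 CPM in Huh-7. The proteoglycan decorin (DCN) averaged 20.9 ± 0.984 CPM in HepG2 and 2.34 ± 0.292 CPM in Huh-7. Lumican (LUM), a proteoglycan of the same family, averaged 6.21 ± 0.207 CPM in HepG2 and 47.9 ± 1.17 CPM in Huh-7, the other direction. Among biliary and other epithelial markers 4 of 7 were higher and 2 lower (85.7% called), with KRT7 at 559 ± 12.6 CPM in HepG2 and 262 ± 9.12 CPM in Huh-7. Of 5 blood and immune markers 1 was lower (20% called).

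Members of the liver lists were called in both directions. Of 15 tested liver transcription factors 2 were higher in HepG2, GATA6 and TBX3, and 5 lower. The share called was 46.7%, against 33.2% of all genes tested. GATA6 averaged 129.6 ± 8.85 CPM in HepG2 and 28.4 ± 0.897 CPM in Huh-7. ONECUT2 averaged 9.77 ± 1.31 CPM in HepG2 and 124 ± 6.76 CPM in Huh-7. The nuclear receptor NR2F2 averaged 40.6 ± 1.40 CPM in HepG2 and 158 ± 9.22 CPM in Huh-7. ONECUT2 and NR2F2 were thus on the Huh-7 side. GATA4, the relative of GATA6, was listed in no HepG2 library and stood at 16 CPM in Huh-7. Of the 6 secreted hepatocyte proteins that passed the filter on low counts 2 were higher and 2 lower, or 66.7% called. VTN stood at 106, 104 and 108 CPM in the HepG2 libraries, against 0.615, 0.732 and 0.62 CPM in the Huh-7 libraries (log2 7.31, SE 0.11). RBP4, the retinol carrier, stood at 8.89, 7.77 and 9.56 CPM in the HepG2 libraries, against 20.5, 20.6 and 22.2 CPM in the Huh-7 libraries (log2 -1.27, SE 0.10). CPS1, which makes carbamoyl phosphate for the urea cycle, stood at 2132, 2132 and 2111 CPM in the HepG2 libraries, against 557, 558 and 573 CPM in the Huh-7 libraries (log2 1.92, SE 0.027). In its list 3 of 14 genes were higher, CPS1, HPD and PPARGC1A, and 1 was lower, a share called of 28.6% that is near the 33.2% of all genes tested.

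Interferon and antigen presentation genes were higher in HepG2 in 22 of 34 cases and lower in 1 (median 1.42). The share called was 67.6%, against 33.2% of all genes tested. HLA-B, a class I molecule that presents peptides, stood at 1135, 1140.4 and 1139 CPM in the HepG2 libraries, against 127, 123 and 126 CPM in the Huh-7 libraries (log2 3.19, SE 0.031, edgeR quasi-likelihood adjusted p = 5.05e-34). HLA genes are polymorphic and alike, so the split of reads among them is uncertain. TAP1, the peptide transporter, averaged 227 CPM in HepG2 against 25.5 CPM in Huh-7. OAS1, which senses double-stranded RNA, averaged 26.9 ± 1.08 CPM in HepG2 and 2.42 ± 0.764 CPM in Huh-7. IFIT2 averaged 19.9 ± 0.882 CPM in HepG2 and 1.34 ± 0.357 CPM in Huh-7. IRF9, which carries the interferon signal to DNA, averaged 21.9 ± 1.41 CPM in HepG2 and 2.21 ± 0.353 CPM in Huh-7. ISG15, PSMB8 and NLRC5 were among the others called higher. IRF7, another factor of the response, was the member called lower, at 0.0332 CPM in HepG2 against 6.96 CPM in Huh-7. IRF3, at 37.7 CPM in HepG2 against 46.7 CPM in Huh-7, and STAT2, at 25.9 CPM in HepG2 against 31.6 CPM in Huh-7, were not called.

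NRF2 targets, aldo-keto reductases and aldehyde dehydrogenases were higher in 16 of 24 cases and lower in 2, 75% called against 33.2% of all genes tested. Their median was the highest of the lists outside the cell markers (1.59). AKR1C2 stood at 62.0, 54.6 and 57.5 CPM in the HepG2 libraries, against 0.934, 0.951 and 0.268 CPM in the Huh-7 libraries (log2 6.30, SE 0.15). ALDH3A1 stood at 65.9, 67.6 and 68.5 CPM in the HepG2 libraries, against 0.717, 1.46 and 0.93 CPM in the Huh-7 libraries (log2 6.01, SE 0.13). Both encode enzymes of carbonyl and aldehyde metabolism. AKR1C genes are close copies, and the division of reads among them is uncertain. ALDH1A3, which makes retinoic acid, averaged 41.8 ± 0.993 CPM in HepG2 and 0.792 ± 0.209 CPM in Huh-7. The carbonyl reductase CBR1 averaged 29.7 ± 1.49 CPM in HepG2 and 3.93 ± 0.662 CPM in Huh-7. The quinone reductase NQO1 averaged 425 CPM in HepG2 against 82.3 CPM in Huh-7. SLC7A11, the cystine carrier, and HMOX1, haem oxygenase, were the members called lower. SLC7A11 averaged 34.6 CPM in HepG2 against 152 CPM in Huh-7 and HMOX1 33.0 CPM in HepG2 against 67.7 CPM in Huh-7. Of 21 drug-metabolising enzymes and transporters 5 were higher and 7 lower, or 57.1% called. The efflux pumps ABCB1 and ABCG2 were on the HepG2 side. ABCB1 stood at 42.6, 41.3 and 47.3 CPM in the HepG2 libraries, against 1.64, 1.57 and 1.55 CPM in the Huh-7 libraries (log2 4.77, SE 0.13). ABCG2 stood at 110.1, 111 and 108 CPM in the HepG2 libraries, against 4.61, 3.97 and 3.72 CPM in the Huh-7 libraries (log2 4.73, SE 0.081). The glutathione transferases GSTM1 and GSTP1 were on the Huh-7 side. GSTM1 averaged 0.0791 ± 0.0729 CPM in HepG2 and 88.0 ± 4.65 CPM in Huh-7. GSTP1 averaged 46.1 ± 1.98 CPM in HepG2 and 447 ± 28.4 CPM in Huh-7.

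In metabolism the lists were mixed. Of 25 cholesterol synthesis genes 8 were higher and 3 lower (median 0.27), 44% called against 33.2% of all genes tested. HMGCS1, an early enzyme of the pathway, stood at 57.3, 56.7 and 58.1 CPM in the HepG2 libraries, against 761, 798 and 793 CPM in the Huh-7 libraries (log2 -3.77, SE 0.037). SC5D, LSS, FDPS and TM7SF2 were among the genes called higher. SC5D, a sterol desaturase, averaged 96.6 ± 1.79 CPM in HepG2 and 14.7 ± 1.24 CPM in Huh-7. LSS, lanosterol synthase, averaged 211 ± 4.95 CPM in HepG2 and 75.3 ± 1.99 CPM in Huh-7. Hypoxia and glycolysis genes were called higher and lower in 7 cases each, of 30, or 46.7% against the same 33.2%. NDRG1, a hypoxia-induced gene, averaged 1098 ± 21.7 CPM in HepG2 and 86.4 ± 2.45 CPM in Huh-7. The aldolase ALDOC averaged 44.7 ± 4.77 CPM in HepG2 and 14.3 ± 0.668 CPM in Huh-7. Hexokinase HK1 and the glucose carriers SLC2A1 and SLC2A3 were on the other side. HK1 averaged 22.0 ± 1.26 CPM in HepG2 and 80.1 ± 1.28 CPM in Huh-7. Carbonic anhydrase CA12 averaged 1.43 ± 0.151 CPM in HepG2 and 22.6 ± 2.02 CPM in Huh-7. Among 10 metallothioneins and iron genes the transferrin receptor TFRC was higher, at 2355 ± 35.0 CPM in HepG2 and 339 ± 8.61 CPM in Huh-7. The metal carrier SLC39A14 was lower, at 352 ± 4.68 CPM in HepG2 and 763 ± 14.7 CPM in Huh-7. Autophagy and lysosome genes were higher in 5 and lower in 6 of 23 cases, or 47.8% called. The ATG8 family parted, with GABARAPL1 at 753 ± 6.02 CPM in HepG2 and 131 ± 3.67 CPM in Huh-7, and GABARAP higher too. MAP1LC3B, of the same family, averaged 230.3 ± 5.72 CPM in HepG2 and 598 ± 12.2 CPM in Huh-7. The cargo receptor SQSTM1 averaged 1807 ± 29.6 CPM in HepG2 and 591 ± 19.6 CPM in Huh-7. Of 36 nuclear genes of oxidative phosphorylation 5 were higher and none lower (median 0.22), 13.9% called against 33.2% of all genes tested. They were NDUFB5, NDUFA10, NDUFC2 and NDUFV2 of complex I and SDHC of complex II. NDUFB5 averaged 33.7 ± 2.76 CPM in HepG2 and 8.14 ± 0.24 CPM in Huh-7. SDHC averaged 109.6 ± 1.39 CPM in HepG2 and 42.9 ± 0.71 CPM in Huh-7.

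Few genes of the translation machinery were called. Of 74 cytosolic ribosomal protein genes 6 were lower in HepG2 and none higher, with a median of -0.38. RPL27A, RPL28, RPS12, RPS27 and RPS27A were among the genes called. The share called was 8.11%, against 33.2% of all genes tested. RPL28 averaged 239 ± 7.01 CPM in HepG2 and 712 ± 22.9 CPM in Huh-7. RPS12 averaged 134 ± 2.90 CPM in HepG2 and 331 ± 9.70 CPM in Huh-7. Ribosomal protein genes have many processed copies, and how their reads were divided is not known here. Of 30 ribosome biogenesis genes 2 were lower, BOP1 and NOP58, 6.67% called against the same 33.2%. BOP1 averaged 73.9 ± 1.27 CPM in HepG2 and 254 ± 10.2 CPM in Huh-7. NOP58 averaged 96.9 ± 0.761 CPM in HepG2 and 198 ± 12.1 CPM in Huh-7 and was not called without Huh-7 12 h replicate 2 (log2 -0.98). The nucleolar proteins NPM1, at 2174 CPM in HepG2 against 2078 CPM in Huh-7, and NCL, at 751 CPM in HepG2 against 438 CPM in Huh-7, were not called.

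The line difference at 12 h was then set against the line difference in untreated cells, by an interaction term in a fit over all 16 libraries. Here the lone untreated HepG2 library is assumed to vary like the other groups. Of 13141 genes tested 2356 (17.9%) were called: in 1238 (9.42%) the difference at 12 h was shifted toward HepG2 and in 1118 (8.51%) toward Huh-7. In untreated cells alone 3501 genes (26.6%) were called between the lines, 1819 (13.8%) higher and 1682 (12.8%) lower in HepG2. Of the 3903 genes called at 12 h, 1908 (48.9%, and 54.5% of the untreated calls) were called the same way without the drug and 33 the opposite way. Another 1962 were not called in untreated cells, and for 926 of those the interaction was called. For the rest it was not, which does not show that they were as in untreated cells. These overlaps set 12 h calls from the 6 libraries beside untreated calls from all 16. With both from the 16 libraries, 2248 of 4418 (50.9%, and 64.2% of the untreated calls) were called the same way and 40 the opposite way. Values below are CPM scaled over the 16 libraries, and so differ slightly from those above.

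The integrated stress response list turned over between the untreated and the 12 h comparison. Without the drug 18 of its 30 tested genes were called higher in HepG2 and 2 lower (median 1.16), against 4 and 12 at 12 h, and the interaction was called toward Huh-7 for 23 and toward HepG2 for none. CHAC1 stood at 51.5 CPM in the untreated HepG2 library, against 2.74 ± 0.359 CPM in untreated Huh-7 libraries, and at 11.2 ± 0.473 CPM in HepG2 and 139 ± 6.40 CPM in Huh-7 libraries at 12 h. That is a shift of -7.86 in the log2 line difference (SE 0.145, edgeR quasi-likelihood adjusted p = 3.85e-29). DDIT3 stood at 41.7 CPM in the untreated HepG2 library, against 4.36 ± 0.871 CPM in untreated Huh-7 libraries, and at 10.9 ± 2.25 CPM in HepG2 and 31.1 ± 2.02 CPM in Huh-7 libraries at 12 h (shift -4.76, SE 0.177). For both genes the untreated HepG2 library was the higher and the treated HepG2 libraries the lower. ASNS and TRIB3, a pseudokinase, followed the same order. ASNS stood at 156 CPM in the untreated HepG2 library, against 33.0 ± 1.64 CPM in untreated Huh-7 libraries, and at 49.0 ± 2.00 CPM in HepG2 and 101 ± 4.84 CPM in Huh-7 libraries at 12 h. TRIB3 stood at 224 CPM in the untreated HepG2 library, against 82.3 ± 6.72 CPM in untreated Huh-7 libraries, and at 28.6 ± 1.45 CPM in HepG2 and 87.8 ± 4.05 CPM in Huh-7 libraries at 12 h. Of the 33 genes called in opposite directions, 0.28% of those tested at 12 h, 6 are in this list (CHAC1, SESN2, TRIB3, DDIT3, ASNS and GDF15), 3 are immediate early genes (FOS, ATF3 and KLF2) and 3 are histones (H2AC8 and the inseparable H2AC18 and H2AC19). SNAI2, of the mesenchymal list, was another of the 33 genes. In all, 22 of the 33 were higher in untreated HepG2 and lower at 12 h, and 11 the reverse.

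Immediate early genes shifted toward Huh-7 in 14 of 32 cases and toward HepG2 in 3. Without the drug 9 were called higher in HepG2 and 9 lower (median -0.21). FOSL1, DUSP5, DUSP4, FOSB, DUSP2, NR4A1, ZFP36 and ARC were thus already called lower there. For DUSP2, NR4A1, ZFP36 and ARC the shift from untreated was not called. EGR1 stood at 3.80 CPM in the untreated HepG2 library, against 3.21 ± 0.819 CPM in untreated Huh-7 libraries, and at 18.6 ± 0.577 CPM in HepG2 and 578 ± 27.1 CPM in Huh-7 libraries at 12 h (shift -5.20, SE 0.383, edgeR quasi-likelihood adjusted p = 2.09e-13). The untreated libraries of the lines were close together, and the Huh-7 libraries at 12 h stood far above all the others. FOS stood at 8.64 CPM in the untreated HepG2 library, against 0.948 ± 0.26 CPM in untreated Huh-7 libraries, and at 43.2 ± 2.46 CPM in HepG2 and 132 ± 7.14 CPM in Huh-7 libraries at 12 h (shift -4.78, SE 0.278). The median of the heat shock list was -0.88 untreated and -0.89 at 12 h, and the interaction was called toward Huh-7 for 5 of 26 genes and toward HepG2 for 1. HSPA6 stood apart within it, at 0.259 CPM in the untreated HepG2 library, against 0.503 ± 0.00739 CPM in untreated Huh-7 libraries, and at 0.0375 ± 0.0649 CPM in HepG2 and 97.7 ± 2.61 CPM in Huh-7 libraries at 12 h (shift -10.02, SE 1.67).

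Mitotic genes shifted toward HepG2 in 19 of 30 cases and toward Huh-7 in none, with medians of -0.10 untreated and 0.84 at 12 h. PLK1 stood at 257 CPM in the untreated HepG2 library, against 187 ± 5.12 CPM in untreated Huh-7 libraries, and at 308 ± 3.53 CPM in HepG2 and 36.1 ± 1.69 CPM in Huh-7 libraries at 12 h (shift 2.63, SE 0.08, edgeR quasi-likelihood adjusted p = 2.26e-23). The Huh-7 libraries at 12 h were the lowest of these. KIF20A stood at 94.8 CPM in the untreated HepG2 library, against 162 ± 4.60 CPM in untreated Huh-7 libraries, and at 67.8 ± 0.951 CPM in HepG2 and 9.34 ± 1.23 CPM in Huh-7 libraries at 12 h (shift 3.63, SE 0.112). Histones went the other way, with 15 of 18 shifted toward Huh-7 and none toward HepG2, and medians of 1.96 untreated and -0.38 at 12 h. NDRG1 and TBX3 were other large shifts toward HepG2. NDRG1 stood at 164 CPM in the untreated HepG2 library, against 161 ± 3.68 CPM in untreated Huh-7 libraries, and at 1221 ± 22.8 CPM in HepG2 and 94.7 ± 2.83 CPM in Huh-7 libraries at 12 h. TBX3 stood at 47.8 CPM in the untreated HepG2 library, against 21.6 ± 0.915 CPM in untreated Huh-7 libraries, and at 1262 ± 26.2 CPM in HepG2 and 81.3 ± 4.54 CPM in Huh-7 libraries at 12 h. The interferon and NRF2 lists kept the same direction without the drug, with medians of 1.35 and 0.76 untreated, against 1.42 and 1.59 at 12 h, and 20 of 34 and 11 of 24 tested genes called higher untreated. The interaction was called toward HepG2 for 8 interferon genes and toward Huh-7 for 1. Among NRF2 targets it was called toward HepG2 for 7 and toward Huh-7 for 2. ATP1B1, the pump's beta subunit, was already on the HepG2 side without the drug. It stood at 264 CPM in the untreated HepG2 library, against 71.8 ± 1.91 CPM in untreated Huh-7 libraries. Its shift of 0.30 was under the 2-fold limit. ATP1B3 was also called higher in HepG2 without the drug, and its shift was not called.

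**Figure D3:**
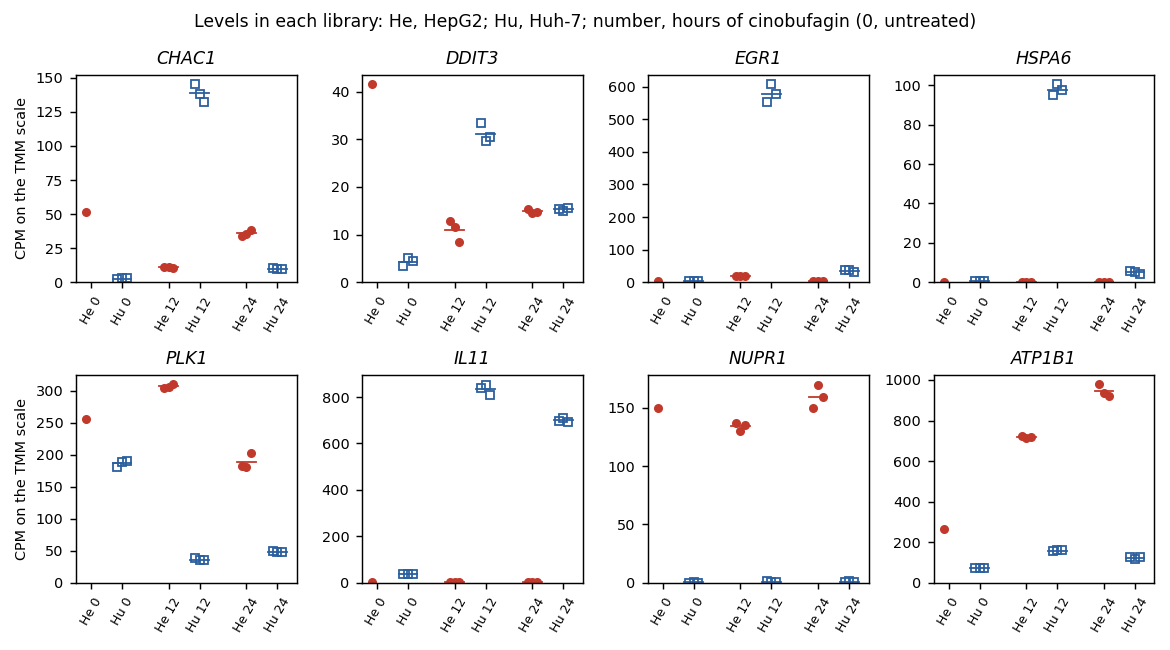
CPM of 8 genes in each of the 16 libraries, scaled over all 16, with HepG2 (He, filled circles) left of Huh-7 (Hu, open squares) for untreated cells (0), 12 h and 24 h of cinobufagin; short lines are the mean of 3 libraries and untreated HepG2 is 1 library. CHAC1, EGR1 and HSPA6 are high in the 3 Huh-7 libraries at 12 h and lower again at 24 h, while IL11 is higher in Huh-7 and NUPR1 in HepG2 at every time.

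At 24 h of the drug 4773 of 13141 genes (36.3%) were called between the lines, 2609 (19.9%) higher and 2164 (16.5%) lower in HepG2. Of the 12 h calls 2775 (71.1%, and 58.1% of the 24 h calls) were called the same way at 24 h and 19 the opposite way, and 1608 were called the same way at all 3 times. With both from the 16 libraries 3117 (70.6%, and 65.3% of the 24 h calls) were called the same way and 22 the opposite way. The difference between the line differences at 12 and 24 h was called for 1604 genes (12.2%), 699 (5.32%) further toward HepG2 at 12 h and 905 (6.89%) further toward Huh-7. The integrated stress response list again moved: 15 of 30 genes were further toward Huh-7 at 12 h and none toward HepG2, and its median was 0.84 at 24 h. CHAC1 stood at 35.9 ± 2.35 CPM in HepG2 and 9.85 ± 0.485 CPM in Huh-7 libraries at 24 h, higher in HepG2 again (difference from 12 h -5.50, SE 0.114, edgeR quasi-likelihood adjusted p = 6.13e-28). EGR1 stood at 3.86 ± 0.778 CPM in HepG2 and 35.3 ± 3.25 CPM in Huh-7 libraries at 24 h, still higher in Huh-7 but nearer (difference -1.77, SE 0.191). HSPA1A stood at 366 ± 37.4 CPM in HepG2 and 378 ± 6.27 CPM in Huh-7 libraries at 24 h, near equality (difference -2.67, SE 0.063), and 9 of 26 heat shock genes were further toward Huh-7 at 12 h than at 24 h. PLK1 stood at 189 ± 12.1 CPM in HepG2 and 48.5 ± 0.908 CPM in Huh-7 libraries at 24 h (difference 1.13, SE 0.077), and 5 of 30 mitotic genes were further toward HepG2 at 12 h. PDK4, a kinase that inhibits pyruvate dehydrogenase, stood at 12.2 CPM in the untreated HepG2 library, against 11.8 ± 0.639 CPM in untreated Huh-7 libraries, at 41.5 ± 0.67 CPM in HepG2 and 1.92 ± 0.611 CPM in Huh-7 libraries at 12 h, and at 18.2 ± 1.56 CPM in HepG2 and 23.7 ± 1.68 CPM in Huh-7 libraries at 24 h (difference of 12 from 24 h 4.80, SE 0.172).

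**Figure D4:**
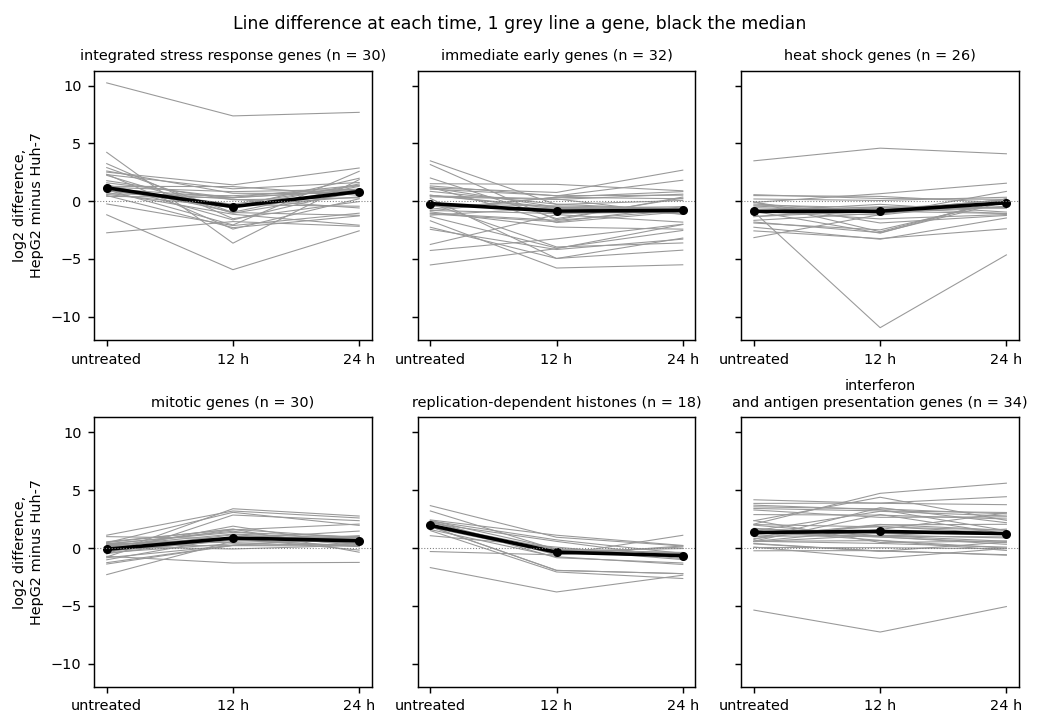
Log2 line difference, HepG2 minus Huh-7, in untreated cells and after 12 and 24 h of cinobufagin for the tested members of 6 lists, 1 grey line per gene and the median in black, all from the fit over 16 libraries. The medians of stress response genes and histones lie on the HepG2 side in untreated cells and on the Huh-7 side at 12 h, that of mitotic genes the other way round, and that of interferon genes on the HepG2 side throughout; the untreated point rests on 1 HepG2 library.

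The line difference also varied between chromosomes. The median over a chromosome's tested genes at 12 h was highest on chromosomes 21 (0.44), 14 (0.43), 22 (0.39) and 17 (0.30) and lowest on 8 (-0.30), 13 (-0.29) and 19 (-0.25). On chromosome 14, 98 of 390 genes were called higher (25.1%) and 28 lower (7.18%). On chromosome 8, 55 of 414 were called higher (13.3%) and 94 lower (22.7%). The untreated medians of those chromosomes lay close to the 12 h ones, at 0.40 for chromosome 14 and -0.31 for chromosome 8, and the 24 h medians at 0.38 and -0.22. Chromosome 19 was the widest exception, at -0.02 untreated, -0.25 at 12 h and -0.31 at 24 h. These are descriptions over genes that share libraries, with no test.

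**Figure D5:**
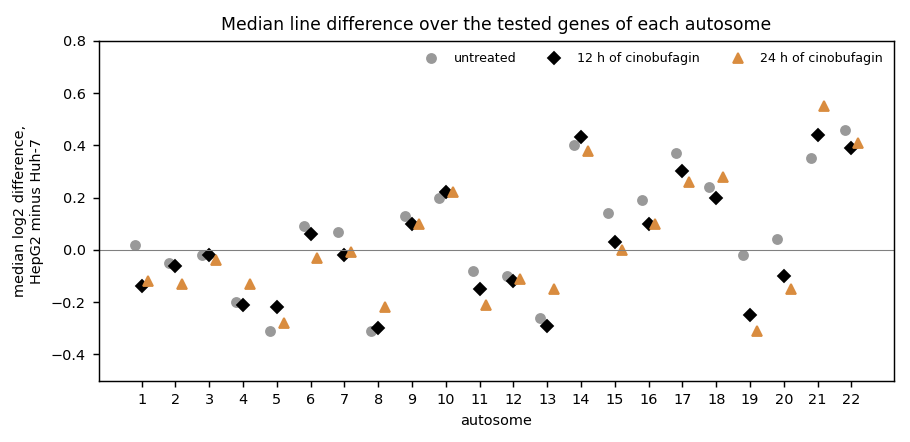
Median log2 difference, HepG2 minus Huh-7, over the tested genes of each autosome in untreated cells (grey circles), at 12 h (black diamonds) and at 24 h of cinobufagin (orange triangles). Chromosomes 14, 17, 21 and 22 are among those above 0 at all 3 times and chromosomes 4, 5, 8 and 13 among those below 0.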

How the data were processed

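Total RNA was captured with oligo-dT, per the labels' protocols. HISAT, Bowtie2, RSEM and hg19 are named in the submitters' processing notes, with no versions; strandedness is not stated there or in the labels. The authors deposited RSEM expected counts, of which 31.7% to 32.3% were not whole because shared reads are divided, and FPKM. Expected counts were rounded, and a gene not listed in a library was entered as 0. Of 16697 identifiers 16665 matched a RefSeq table on GRCh38.p14, used for names, chromosomes and neighbour order, and 15992 were autosomal. Library sizes were totals over all genes. In edgeR 4.0.16 (R 4.3.3) filterByExpr removed 3279 autosomal genes holding 0.0753% of autosomal counts, TMM scaled the libraries (factors 0.992 to 1.01), and quasi-likelihood tests with Benjamini-Hochberg adjustment gave HepG2 minus Huh-7. CPM are TMM-scaled except marker sums. The test was also run on simulated counts, with few genes changed from means shared by the lines. That setting does not cover genes at 0 in 1 line or a difference as wide as the one here. Replicates differed by more than sampling noise (chi-square over degrees of freedom 1.345 to 1.882).

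The members and the gene lists were chosen with earlier results of these data known. Named genes were the called genes with the 15 highest and 15 lowest differences, averaging 10 CPM or more without overlap, up to 4 called members of each list, the 5 highest and 5 lowest of each interaction, and a fixed set; other list members were chosen after their values were seen. Some genes are not reported here. Alternatives were other scalings and filters, DESeq2 1.42.0, limma 3.58.1 on log2(FPKM + 1), all 16 libraries, all chromosomes, a replicate block, each library left out (the single untreated HepG2 library for the 12 h against 24 h test alone) and adjusted p alone.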

Additional observations from a re-analysis of the deposited data

Results flagged for a closer look

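The line difference in log2, HepG2 minus Huh-7, changed between 12 h and 24 h of cinobufagin for these genes by the interaction test, given as the 12 h minus the 24 h difference with adjusted p from edgeR's quasi-likelihood test. It stood further toward Huh-7 at 12 h for HSPA6 (-6.30), CHAC1 (-5.50), LURAP1L (-4.90), DDIT4 (-4.64), RUNX3 (-4.45, adjusted p = 0.0199), FOS (-1.97), EGR1 (-1.77) and DDIT3 (-1.48). It stood further toward HepG2 at 12 h for DLX2 (2.85), LIPH (2.91), TENM3 (3.71, adjusted p = 0.0408), COL15A1 (4.68, adjusted p = 0.01) and PDK4 (4.80). DDIT4, an inhibitor of mTORC1 signalling, stood at 53.8 ± 0.828 CPM in HepG2 and 224 ± 7.95 CPM in Huh-7 libraries at 12 h and at 326 ± 18.5 CPM in HepG2 and 54.2 ± 2.70 CPM in Huh-7 libraries at 24 h, on the scale of the 16 libraries. The lines thus exchanged places within the treatment. LURAP1L did so as well, at 5.57 ± 0.635 CPM in HepG2 and 29.9 ± 1.83 CPM in Huh-7 libraries at 12 h and at 11.9 ± 0.44 CPM in HepG2 and 2.14 ± 0.127 CPM in Huh-7 libraries at 24 h. LIPH, a phospholipase, stood at 102 ± 2.92 CPM in HepG2 and 4.69 ± 0.45 CPM in Huh-7 libraries at 12 h and at 32.1 ± 1.26 CPM in HepG2 and 11 ± 1.06 CPM in Huh-7 libraries at 24 h. For RUNX3, TENM3 and COL15A1 1 line was at or near 0 at both times, so the size of the fitted change depends on the prior count.

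Against untreated cells, the 12 h minus the untreated line difference stood further toward Huh-7 for HSPA6 (-10.02), CHAC1 (-7.86), S1PR1 (-7.53, adjusted p = 0.0162), MYEOV (-6.65), IL1RL1 (-5.97), EGR1 (-5.20), FOS (-4.78), DDIT3 (-4.76), CDKN1A (-2.04) and ATF4 (-1.36), in the same edgeR quasi-likelihood fit. It stood further toward HepG2 for SPINT1 (4.47), PLIN2 (4.71, adjusted p = 0.035), PCSK1 (4.94), PIEZO2 (6.04) and NOTCH3 (7.25). IL1RL1, a receptor of interleukin 33, stood at 0.137 CPM in the untreated HepG2 library, against 1.14 ± 0.401 CPM in untreated Huh-7 libraries, and at 0.149 ± 0.0658 CPM in HepG2 and 63.2 ± 1.70 CPM in Huh-7 libraries at 12 h. NOTCH3, a Notch receptor, was listed at 0 CPM in the untreated HepG2 library, against 254 ± 6.98 CPM in untreated Huh-7 libraries, and at 0.334 ± 0.191 CPM in HepG2 and 46.4 ± 2.18 CPM in Huh-7 libraries at 12 h. PCSK1, a prohormone convertase, stood at 48.5 CPM in the untreated HepG2 library, against 6.0 ± 0.569 CPM in untreated Huh-7 libraries, and at 12.4 ± 0.284 CPM in HepG2 and 0.0378 ± 0.0655 CPM in Huh-7 libraries at 12 h. Each of these rests on 1 untreated HepG2 library, and for S1PR1, MYEOV, SPINT1, PLIN2, PIEZO2 and NOTCH3 a line was at 0 in 1 of the groups, so the size depends on the prior count. No group of the comparison held the 4 or more libraries that a search for outlying libraries needs.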

How the results depend on the processing

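The 3903 calls at 12 h came to 3900 under RLE scaling, 3894 under upper-quartile scaling, 3891 with plain library sizes, 3870 with DESeq2, 4418 over all 16 libraries, 4067 over all chromosomes, 4525 with no filter and 3992 to 4042 with 1 of the 6 libraries left out. A mean of at least 10 CPM left 2333 (1225 higher, 1108 lower), and limma on log2(FPKM + 1) called 1358 higher genes among 2639. By adjusted p alone 9710 genes passed (4825 higher, 4885 lower). For 12 h against 24 h a mean of at least 10 CPM left 995 (395 toward HepG2, 600 toward Huh-7) and adjusted p alone 6674 (3583 and 3091). For 12 h against untreated those gave 1507 (759 toward HepG2) and 6820 (3478 and 3342). With 1 library left out these counts were 1567 to 1617 and 2321 to 2367. Of the calls at 12 h 49.7% to 53.4% were higher. The interaction splits moved with the scaling: for 12 h against untreated, 1460 toward HepG2 and 951 toward Huh-7 under upper-quartile scaling, where 1 stress response gene was called toward HepG2; for 12 h against 24 h, 605 and 1000 under that scaling and 580 and 1029 with plain library sizes. The untreated comparison could not be run without its 1 HepG2 library; without it 1583 genes were called for 12 h against 24 h, an alternative chosen after seeing the data.

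Most named genes were picked because they were called with large differences, so the counts that follow do not describe genes at large. Of 176 named genes tested at 12 h 170 were called, and 166 kept call and direction under every alternative run. Of these alternatives, adjusted p alone could not remove a call. Genes that lost the call included EDEM1 (-0.89 in limma), MUC16 (0.80 in limma) and NOP58 (-0.98 without Huh-7 12 h replicate 2). The cause was not tested. DLX2, at 0.08 and not called, ran from -0.004 without HepG2 12 h replicate 2 to 0.19. The change from 24 h lost its call for RUNX3 without HepG2 24 h replicate 2 (adjusted p = 0.186) and for TENM3 without any of 5 Huh-7 libraries (0.0751 to 0.142), and that from untreated for PLIN2 without HepG2 12 h replicate 1 (0.0848) or 2 (0.0507), all by edgeR. Medians of 8 of 39 lists changed sign under some alternative: BCL2 family, drug-metabolising, liver factors, p53, secreted hepatocyte, SRF and YAP, urea cycle and Wnt. Libraries with the same number did not deviate together (correlations -0.011 to 0.013), so the numbers do not pair the lines; with a replicate block 3902 genes were called, 3898 of them the same, and 1596 and 2331 for the interactions. Genes under 3 counts, about 0.3 CPM, were beyond the depth of a single library.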

Other observations

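Called genes lay side by side in places. In the order of tested genes along each autosome, 14 runs of at least 6 neighbours were called in 1 direction. The longest held 13 genes on chromosome 19, RDH13 to IL11, all lower in HepG2 with log2 differences from -8.81 to -1.03. A run of 9 on chromosome 11, from CFL1 past FOSL1 to EIF1AD, was lower by -4.97 to -1.33. On chromosome 2, 9 neighbours from ERFE past ASB1 to NDUFA10 were higher by 1.52 to 9.19, and 8 from EIF4E2 past ATG16L1 to HJURP by 1.12 to 7.13. On chromosome 17, 7 genes from TNFAIP1 past VTN to UNC119 were higher by 1.02 to 7.31. Runs were looked for after the values were seen, and overlapping or read-through transcripts can share reads.

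The most abundant transcripts per length were largely the same in both lines. The ferritin heavy chain FTH1 came first, at 11476 ± 38.9 FPKM in HepG2 and 13173 ± 661 FPKM in Huh-7 (SD, n = 3 each), followed by GAPDH at 4621 ± 44.7 FPKM in HepG2 and 4551 ± 149 FPKM in Huh-7. Among the 15 most abundant of either line, TM4SF1, a membrane protein of the tetraspanin-like L6 family, was called higher in HepG2, at 2319 ± 90.1 FPKM in HepG2 and 753 ± 7.95 FPKM in Huh-7. ALPP was too, at 1610 ± 34.9 FPKM in HepG2 and 237 ± 2.90 FPKM in Huh-7. The actin-binding proteins TMSB10 and CFL1 were called lower. TMSB10 averaged 1640 ± 46.8 FPKM in HepG2 and 3623 ± 78.1 FPKM in Huh-7, and CFL1 826 ± 12.3 FPKM in HepG2 and 2105 ± 97.1 FPKM in Huh-7.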
